A study of Mus musculus with 4 samples.

Results

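The cells described here are tumor-infiltrating unconventional αβ T cells (UTCαβ) that were in G2 or mitosis when they were captured, judged by their transcripts. They numbered 172 of 21342 kept cells (0.806%). Each cell was scored on 7 mitotic genes (Ube2c, Cenpf, Ccnb2, Cdc20, Hmmr, Plk1 and Ccnb1), whose summed unique molecular identifiers (UMIs, counted transcript molecules) are called M. A second score, S, summed the UMIs of 5 genes of DNA synthesis (Rrm2, Tk1, Esco2, Hist1h1b and 2810417H13Rik). Members were chosen by these measured UMIs: a kept cell was one when M was at least 3 and not below S. The 12 genes are therefore given below as a description only. Cells with M = 0 and S = 0 in the same library were the comparison, and cells with S of at least 3 and M below S are called S-phase cells.

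The study profiled single UTCαβ from sarcomas raised with the carcinogen 3-methylcholanthrene under the skin of male mice of the C57BL/6J background whose age is not stated. One group was wild type (Csf3r+/+) and the other lacked the receptor for granulocyte colony-stimulating factor in the germline of the whole animal (Csf3r-/-), with 2 mice in each. Leukocytes from the tumors were enriched with magnetic beads, depleted of CD11b+, CD4+ and CD8+ cells and sorted as CD45+ cells with an αβ T cell receptor (TCRβ+) that lacked CD11b, TCRγδ, CD4 and CD8, and libraries were made with droplet-based 3′ chemistry. The 4 libraries are told apart only by a numeric barcode suffix, which is not tied to an animal in the labels, so they are called library 1 and library 2 of each genotype.

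Csf3r+/+ library 1 held 3625 barcodes and 12483656 UMIs, and Csf3r+/+ library 2 held 11512 barcodes and 38559291 UMIs. Csf3r-/- library 1 held 7178 barcodes and 18136748 UMIs, and Csf3r-/- library 2 held 10210 barcodes and 23234493 UMIs. Kept cells had at least 200 genes, at most 20000 UMIs, at most 10% mitochondrial UMIs and at least 1 UMI of Cd3e, which left 2843, 6458, 5215 and 6826 cells in that order. Pairs of libraries shared 33 to 163 barcode sequences, and 0 of these were members in both libraries of a pair. No doublet caller was run.

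A cell that has copied its DNA passes through G2, in which cyclin B accumulates, and then through mitosis, in which chromosomes condense, attach by their kinetochores to the spindle and are pulled apart. The anaphase-promoting complex ends mitosis by destroying cyclin B and securin, with Cdc20 as its activator and Ube2c as the enzyme that starts the ubiquitin chains. Genes of these steps are transcribed late in the cycle, many of them through a promoter element called the CHR (cell cycle genes homology region), read TTTGAA, often beside CCAAT boxes. Unconventional αβ T cells with neither CD4 nor CD8 fall into type 1 cells, which make interferon-γ and carry NK receptors, and type 3 cells, which make interleukin 17.

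The start regions of 6 of the 7 mitotic genes that chose the cells are printed to show where these letters lie, Ccnb1 being the one without them. Cenpa and Cdca8, with the letters, and Birc5, without them, are mitotic genes outside the rule, and Rrm2 is a gene of DNA synthesis. Each sequence runs from 120 bases before to 30 bases after the annotated start, 5′ to 3′ on the strand of the gene, from RefSeq on GRCm38.p6, and capitals mark TTTGAA on either strand, which reads TTCAAA where it lies on the other strand.
Ube2c: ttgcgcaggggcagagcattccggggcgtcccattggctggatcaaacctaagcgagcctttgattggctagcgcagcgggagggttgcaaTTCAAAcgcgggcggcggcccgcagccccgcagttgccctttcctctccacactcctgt
Cdc20: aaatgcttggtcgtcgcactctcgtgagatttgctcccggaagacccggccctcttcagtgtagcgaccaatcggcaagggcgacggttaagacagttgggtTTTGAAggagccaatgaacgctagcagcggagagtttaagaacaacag
Ccnb2: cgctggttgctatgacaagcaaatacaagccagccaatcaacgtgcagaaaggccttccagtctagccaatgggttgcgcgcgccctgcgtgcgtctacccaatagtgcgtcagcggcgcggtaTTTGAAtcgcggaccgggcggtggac
Cenpf: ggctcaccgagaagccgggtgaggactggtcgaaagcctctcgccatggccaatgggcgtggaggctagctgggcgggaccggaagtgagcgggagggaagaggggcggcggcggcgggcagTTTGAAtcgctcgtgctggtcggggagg
Hmmr: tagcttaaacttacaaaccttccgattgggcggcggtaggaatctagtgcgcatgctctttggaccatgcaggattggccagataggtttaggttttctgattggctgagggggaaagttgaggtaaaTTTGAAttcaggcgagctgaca
Ccnb1: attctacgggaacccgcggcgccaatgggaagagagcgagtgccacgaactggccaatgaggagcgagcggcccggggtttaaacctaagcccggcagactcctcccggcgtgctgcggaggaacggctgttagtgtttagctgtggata
Cenpa: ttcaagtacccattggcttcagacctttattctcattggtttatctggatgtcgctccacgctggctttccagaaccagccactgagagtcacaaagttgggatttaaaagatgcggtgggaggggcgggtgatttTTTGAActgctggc
Cdca8: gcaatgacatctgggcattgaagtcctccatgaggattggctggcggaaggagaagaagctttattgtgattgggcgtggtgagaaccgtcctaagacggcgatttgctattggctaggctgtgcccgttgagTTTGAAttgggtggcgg
Birc5: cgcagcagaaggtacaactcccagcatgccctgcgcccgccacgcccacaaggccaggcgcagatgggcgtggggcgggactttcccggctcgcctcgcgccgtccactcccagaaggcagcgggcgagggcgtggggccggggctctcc
Rrm2: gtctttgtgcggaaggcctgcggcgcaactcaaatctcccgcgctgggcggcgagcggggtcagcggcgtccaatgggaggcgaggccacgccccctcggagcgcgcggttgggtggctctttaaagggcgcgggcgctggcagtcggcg

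These windows lie on GRCm38.p6 as follows: Ube2c at chr2:164769809-164769958, plus strand, Cdc20 at chr4:118437314-118437463, minus strand, Ccnb2 at chr9:70421525-70421674, minus strand, Cenpf at chr1:189688057-189688206, minus strand. The others were Hmmr at chr11:40733408-40733557, minus strand, Ccnb1 at chr13:100786457-100786606, minus strand, Cenpa at chr5:30666766-30666915, plus strand, Cdca8 at chr4:124936888-124937037, minus strand, Birc5 at chr11:117849117-117849266, plus strand and Rrm2 at chr12:24708134-24708283, plus strand. With the first base of the transcript counted as position 1, TTTGAA began at -29 in Ube2c, on the other strand, and at -18 in Cdc20. It began at 5 in Ccnb2, 3 in Cenpf, 9 in Hmmr, 31 in Plk1 (window not printed), 17 in Cenpa and 14 in Cdca8. None was found in the 300 bases (250 before and 50 after the start) of Ccnb1, Birc5, Nek2, Nuf2, Nusap1, Rrm2, Tk1 or 2810417H13Rik. Of the 7 mitotic genes that chose the cells, 6 held TTTGAA and 7 held CCAAT in 300 bases, against 20.2% and 41.1% of the 27025 genes in the RefSeq table.

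The letters were more frequent near the starts of mitotic genes than of the tested genes as a whole. TTTGAA within 50 bases of the start was found in 17 of 27 spindle and kinesin genes (63.0%) and 9 of 22 centromere and kinetochore genes (40.9%). It was found in 2 of 32 replication genes (6.25%) and in 287 of 7341 tested genes (3.91%). Genes without a start region in the RefSeq table were left out of these shares. These shares describe letters in a window and carry no statement on which protein binds there.

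In every library the members carried a graded mitotic signal, without a gap at the threshold. Median M was 22 and 15 UMIs in wild-type libraries and 9 and 11 UMIs in knockout libraries, and the highest cell of each library had 65, 48, 40 and 45 UMIs. At M = 3, just inside the threshold, lay 20 members, while 48 cells with M = 2 and M not below S lay just outside. A further 192 cells with M of at least 3 were left out because S was higher. Of the 172 members, 103 had M of at least 10, 46 had all 7 genes and 10 had only 1 of them.

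Over all members, Ube2c, the E2 enzyme of the anaphase-promoting complex, gave the largest part of M (33.5%), followed by cyclin B2 (Ccnb2, 19.9%) and Cdc20 (14.8%). In Csf3r-/- library 1 the part of Cenpf (13.4%) was above that of Cdc20 (12.4%). Counts were summed over the members of a library and scaled to a total of 1000000 UMIs (CPM), so that a level in CPM is a share of the RNA and not a number of molecules per cell. In the order Csf3r+/+ 1 and 2, Csf3r-/- 1 and 2, which holds for each set of 4 values below, Ube2c stood at 1287, 763, 634 and 1144 CPM. Ccnb2 was the most even, at 652, 601, 530 and 575 CPM, and was found in 93.0% of members. Plk1, the kinase that drives spindle assembly, stood at 238 CPM in Csf3r+/+ library 1 and between 112 and 142 CPM in the other libraries, and was found in 47.1% of members. Csf3r+/+ library 1 had the highest level of each of the 7 genes, though only just for Cenpf (412 against 410 CPM in Csf3r-/- library 2) and Cdc20 (526 against 523 CPM), and the genotypes overlapped for 6 of the 7.

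Transcripts of DNA synthesis persisted in most members, so the label of G2 and mitosis includes cells that still held S-phase RNA. S was 0 in 40 of the 172 members (23.3%) and at least 3 in 102. Over all members, 2810417H13Rik, which encodes the PCNA clamp-associated factor, stood at 494 CPM against 1161 CPM in S-phase cells, and Rrm2, a subunit of ribonucleotide reductase, at 205 against 523 CPM. The linker histone gene Hist1h1b stood at 167, 78.8, 72.8 and 68.3 CPM in the 4 libraries against 183, 96.4, 114 and 105 CPM in S-phase cells.

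**Figure D1:**
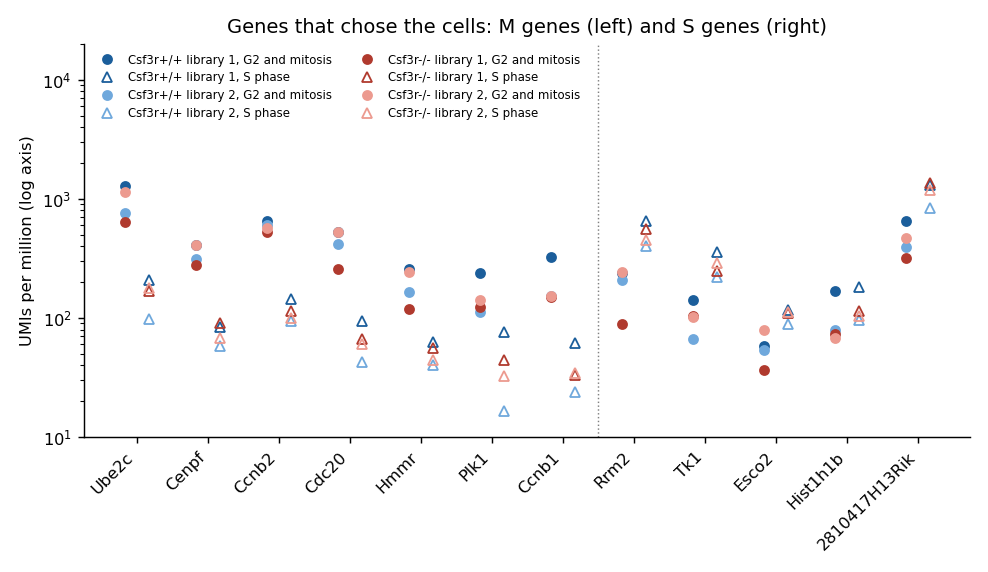
Levels of the 12 genes that chose the cells, in CPM on a log axis, with 1 filled circle per library for G2 and mitosis cells and 1 open triangle per library for S-phase cells. The 7 mitotic genes on the left are higher in G2 and mitosis cells, Ube2c at 634 to 1287, and the 5 genes of DNA synthesis on the right are mostly higher in S-phase cells, both as the choice of cells requires.

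G2 and mitosis cells held about double the RNA of the comparison cells. The median member had 6531 and 6542 UMIs in wild-type libraries and 4389 and 4173 UMIs in knockout libraries, against 2913, 2952, 2186 and 1956 UMIs in M = 0 and S = 0 cells of the same libraries. The ratio was 2.24, 2.22, 2.01 and 2.13. A deeper cell can reach M = 3 more easily, so depth and the choice of cells are linked. The rule was therefore also applied after each cell was thinned to 1500 UMIs.

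Members made up 2.11% of kept cells in Csf3r+/+ library 1 (60 of 2843, exact Clopper-Pearson 95% interval 1.61 to 2.71) and 0.542% in Csf3r+/+ library 2 (35 of 6458, 0.378 to 0.753). They made up 0.748% in Csf3r-/- library 1 (39 of 5215, 0.532 to 1.02) and 0.557% in Csf3r-/- library 2 (38 of 6826, 0.394 to 0.763). Csf3r+/+ library 1 alone stood apart, and the other 3 intervals overlapped. The intervals cover counting error only.

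Thinned to 1500 UMIs, the shares were 1.80% (50 of 2780 cells), 0.332% (21 of 6319), 0.620% (29 of 4674) and 0.513% (30 of 5851). Of the cells that met the rule after thinning, 42, 18, 18 and 26 were also members without it. Cells too shallow for thinning numbered 63, 139, 541 and 975. Without thinning, the mean share was 1.33 ± 1.11% for wild-type libraries and 0.652 ± 0.135% for knockout libraries (SD over 2 libraries each), a difference of -0.674 percentage points with a two-sided exact permutation p of 1, where the smallest p that 2 against 2 libraries allow is 0.33. Without Csf3r+/+ library 1 the difference turned to 0.110 points. S-phase cells were also most frequent in Csf3r+/+ library 1, at 5.14% against 1.53%, 2.19% and 1.35% in the other libraries.

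**Figure D2:**
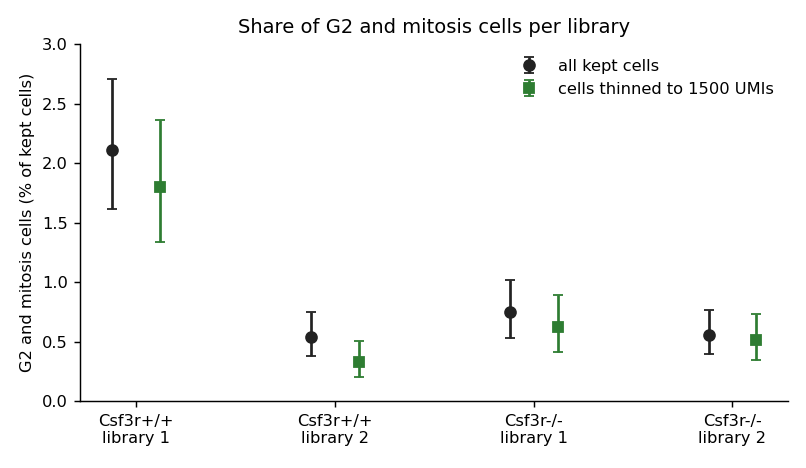
Share of kept cells that were G2 and mitosis cells in each of the 4 libraries, in percent, for all kept cells (black circles) and for cells thinned to 1500 UMIs (green squares), with exact 95% intervals as bars. Csf3r+/+ library 1 stands above the other 3 libraries at both depths, and the Csf3r-/- libraries lie within the range of the Csf3r+/+ libraries.

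Against M = 0 and S = 0 cells, the members held most of the machinery of mitosis at far higher levels. The contrast summed UMIs per library and class, left out the 12 genes and fitted 9553 genes with edgeR's quasi-likelihood test and the library as a block. At a Benjamini-Hochberg adjusted p under 0.05, 634 genes were higher (6.64% of those tested) and 722 lower (7.56%), and the median over all genes was -0.13 on the log2 scale. Cell-cycle genes move with the genes of the rule, so their counts follow from how the cells were chosen and are given as a description with no weight as a test.

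Survivin (Birc5), a subunit of the chromosomal passenger complex, stood at 1050, 732, 511 and 726 CPM in members of the 4 libraries and at most 2.41 CPM in the comparison cells. Fam64a stood at 153, 121, 88.6 and 120 CPM against at most 0.268 CPM. Cyclin A2 (Ccna2) ranged from 115 to 317 CPM against at most 0.765, and the kinetochore gene Nuf2 from 26.1 to 114 CPM against at most 0.139. No library's members overlapped with comparison cells for these genes. The other genes with the largest differences were Depdc1a, Nek2, Kif2c, Ska1, Nusap1 and Aspm, most of which act at the spindle or the kinetochore.

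Among mitotic kinases and checkpoint genes, 16 of 16 tested were higher, with a median log2 fold change of 6.39. In the spindle and kinesin list 29 of 29 were higher (median 5.54), and in the centromere and kinetochore list 25 of 26 (median 5.27). The chromosome packing list had 20 of 20 higher with a median of 3.16. Hmgb2, a chromatin protein of this list that was also found in the comparison cells, stood at 5202, 3765, 3655 and 4228 CPM against 328, 412, 372 and 385 CPM. Stathmin (Stmn1), a member of the spindle list that destabilizes microtubules, stood at 1823, 1465, 1392 and 1885 CPM against 19.3 to 33.9 CPM.

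The list of the anaphase-promoting complex and securin was mixed, with 8 of 19 higher and 1 lower. The lower gene was securin itself (Pttg1, -0.51 ± 0.17, SE, adjusted p = 0.0295 by edgeR), at 107, 66.6, 125 and 109 CPM against 133, 99.3, 170 and 133 CPM, although its protein is a mitotic substrate. Of replication genes 18 of 36 were higher (median 0.65), and of nucleotide synthesis genes 5 of 17 (Tyms, Rrm1, Dut, Impdh2 and Mthfd2). Of 12 cell-cycle transcription factors only E2f8, Foxm1 and Rbl1 were higher. Nuclear transport had 8 of 12 higher, with Ran, the GTPase of import and spindle assembly, at 1591, 1048, 1012 and 1200 CPM against 360 to 485 CPM.

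Genes that hold back the cycle moved both ways. Of 11 tested CDK inhibitors and brakes, Cdkn3, Cdkn2a, Cdkn2c, Ccng2 and Cdkn2d were higher, and the antiproliferative genes Btg1 and Btg2 were lower. Cyclin D2 (Ccnd2), which acts in G1, fell by 1.26 ± 0.13 on the log2 scale (SE), from 822, 598, 911 and 614 CPM to 297, 212, 605 and 297 CPM, and was the only call among 8 G1 genes (edgeR adjusted p = 2.77e-12).

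**Figure D3:**
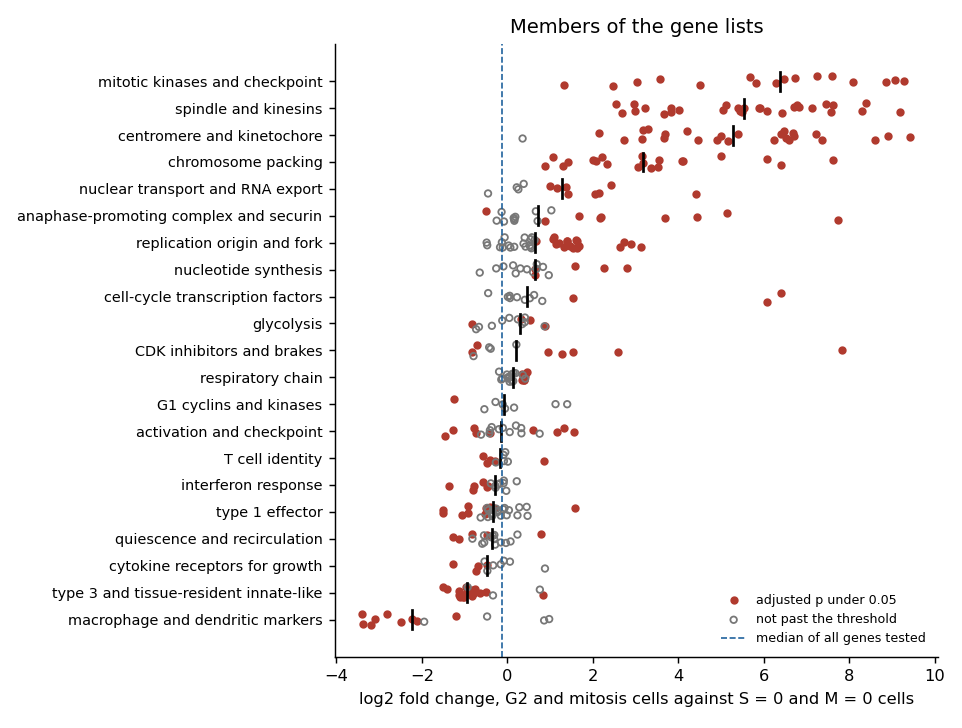
Log2 fold change of every tested member of 21 gene lists between G2 and mitosis cells and M = 0 and S = 0 cells of the same library (edgeR), with filled points past an adjusted p of 0.05, open points not past it, black bars at list medians and a dashed line at the median of all genes. Mitotic lists lie far to the right with medians of 3.16 to 6.39, and the type 3 list and the macrophage markers lie to the left.

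Set against S-phase cells, more late-cycle genes were higher than lower in members, and nearly all replication genes tested were lower. Of 4798 genes tested by edgeR, 321 were higher (6.69%) and 321 were lower (6.69%), with a median over all genes of 0.02. M and S divided these classes, so this too is a description. Cenpa, the histone variant of the centromere, stood at 909, 645, 673 and 731 CPM against 125, 105, 159 and 154 CPM in S-phase cells. Nek2, a centrosome kinase, stood at 112, 74.9, 88.6 and 80.0 CPM against 4.05 to 18.7 CPM, and Cdkn3, a phosphatase of CDKs, at 234, 179, 172 and 126 CPM against 22.3 to 46.7 CPM. Each member level was above every S-phase level for these 3 genes.

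Replication genes were lower for 33 of 35 tested members (median -1.62) and nucleotide synthesis genes for 12 of 15 (median -1.16). The sliding clamp Pcna stood at 41.4, 54.1, 46.9 and 74.3 CPM against 304, 238, 239 and 188 CPM in S-phase cells. Of the spindle list 16 of 26 were higher and 2 lower (Stmn1 and Tuba1b), and of the kinase list 6 of 14 were higher and 0 lower. The centromere list had 7 higher and 3 lower of 25 (Cenph, Cenpk and Cenpm), and the packing list 7 higher and 3 lower of 20 (Ncaph, Ncapd3 and Ncapg2). The other named genes were Hist1h2bc, Fam64a, Aurka and Gpsm2, which were higher, and Cdc6, Ung, Chaf1b and Syce2, which were lower. Hist1h2bc belongs to a family of near-identical histone genes between which reads may be split.

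Klrg1, an inhibitory receptor of effector T and NK cells, was the 1 gene without a known cell-cycle role among the 8 with the largest rise against S-phase cells. It was detected in 5, 7, 2 and 3 members of the 4 libraries (34, 91, 26 and 108 CPM with all genes counted), and 15 of the 19 UMIs in Csf3r-/- library 2 came from 1 cell. The rise therefore rests on few cells.

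Genes of T cell effector states were not used by the rule. Type 3 genes took a smaller share of the RNA in members than in M = 0 and S = 0 cells in each of the 4 libraries, and 17 of 21 tested genes of the type 3 and tissue-resident list were lower (median -0.93, against -0.13 for all genes). The summed list stood at 3023, 742, 5512 and 5400 CPM in members, against 5603, 1420, 8505 and 10838 CPM in comparison cells. S-phase cells stood at 2987, 472, 4572 and 5226 CPM. Per cell, type 3 UMIs were not fewer, at a mean of 20.8, 5.11, 27.2 and 24.97 in members against 17.5, 4.96, 21.96 and 24.8 in comparison cells, which were shallower. Type 1 UMIs per cell were 65.8, 89.5, 23.2 and 32.2 against 42.9, 59.7, 13.3 and 11.9.

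The chemokine receptor Cxcr6, a marker of tissue residence and the most abundant gene of the list, stood at 733, 183, 1163 and 886 CPM in members and 1171, 337, 2258 and 2381 CPM in comparison cells, lower in 4 of 4 libraries. It fell by 1.10 ± 0.11 on the log2 scale (SE, edgeR adjusted p = 7.85e-13). Tmem176b, a channel protein of type 3 cells, fell by 1.13 ± 0.12 and Ramp1, a receptor for the neuropeptide CGRP, by 1.14 ± 0.13. The transcription factors of innate-like and type 3 fate fell too, Zbtb16 by 1.41 ± 0.26, Rora by 1.03 ± 0.16 and Maf by 0.50 ± 0.17.

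Icos, a costimulatory receptor, fell by 0.83 ± 0.13 on the log2 scale (edgeR adjusted p = 1.43e-06). Il17a itself did not pass the test (log2 fold change -0.34 ± 0.20, SE, edgeR adjusted p = 0.299). Areg, which encodes the growth factor amphiregulin, rose by 0.84 ± 0.29 (edgeR adjusted p = 0.0398) through Csf3r-/- library 2, at 188 against 69.1 CPM, and was at 0 CPM in members of Csf3r+/+ library 1. Among cells of 3000 to 8000 UMIs in both classes, which narrows the gap in depth, 8 of 21 type 3 genes were lower, with a median of -0.64, and without the library as a block 0 were called.

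The type 1 list moved less and in both directions. Of 29 tested members 9 were lower and 1 was higher, with a median of -0.33 against -0.13 for all genes. Its sum was lower in both Csf3r+/+ libraries (9565 and 12984 against 13774 and 17098 CPM), nearly level in Csf3r-/- library 1 (4696 against 5138 CPM) and higher in Csf3r-/- library 2 (6953 against 5219 CPM). The direction thus differed between libraries. Without Csf3r-/- library 2, 16 of 29 were lower, and with DESeq2 4 were.

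Ccl5, a chemokine and the most abundant type 1 gene, stood at 2939, 4993, 1700 and 1491 CPM against 5091, 7162, 1855 and 1616 CPM and fell by 0.53 ± 0.09 on the log2 scale (edgeR adjusted p = 5.72e-06). The granzyme gene Gzmc fell (-1.51 ± 0.29), as did the signaling adaptor Tyrobp (-1.51 ± 0.22), and the other genes that fell were Klrb1c, Fasl, Stat4, Klrk1, Gzmb and Nkg7. Eomes, the T-box factor of type 1 and memory-like cells, rose by 1.57 ± 0.32 (edgeR adjusted p = 1.80e-04), from 13.1, 35.2, 8.54 and 6.26 CPM to 34.1, 58.3, 88.6 and 22.9 CPM. Tbx21, the other T-box factor of type 1 cells, had a log2 fold change of -0.36 ± 0.29 and did not pass the test (edgeR adjusted p = 0.49). Interferon-γ (Ifng, -0.21 ± 0.20, edgeR adjusted p = 0.577) did not pass either.

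Counted cell by cell, the members leaned to type 1 more often than M = 0 and S = 0 cells. A cell was called type 1 leaning when, thinned to 1500 UMIs, it held more UMIs of the 31 type 1 genes than of the 22 type 3 genes. This was so for 61.7% of members in Csf3r+/+ library 1 (37 of 60, exact 95% interval 48.2 to 73.9), 97.1% in Csf3r+/+ library 2 (85.1 to 99.9), 41.0% in Csf3r-/- library 1 (25.6 to 57.9) and 54.1% in Csf3r-/- library 2 (36.9 to 70.5). The same share among comparison cells was 48.5%, 91.8%, 23.8% and 21.3%.

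The share was higher in members in 4 of 4 libraries, by 17.1 ± 11.5 percentage points on average (SD, n = 4 libraries). The two-sided exact sign-flip permutation p was 0.13, the smallest that 4 libraries allow. The gap was 13.1, 5.34, 17.2 and 32.8 points in the order of libraries above. S-phase cells leaned to type 1 at 61.4%, 100%, 43.0% and 56.0% in the 4 libraries, a difference from members that was not tested. Of the members, 1, 2, 3 and 0 lay within 1 UMI of the boundary between the leanings, which is a boundary on a scale and not a cell type.

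Seen the other way, members made up 2.63%, 0.582%, 1.39% and 1.52% of type 1 leaning cells and 1.69%, 0.217%, 0.659% and 0.377% of type 3 leaning cells. The share was thus higher on the type 1 side within each library. At 1500 UMIs the median member held 15, 18, 1 and 8 type 1 UMIs in the 4 libraries, against 4, 25, 1 and 2 in comparison cells, and 2, 0, 9 and 6 type 3 UMIs, against 8, 1, 14 and 17. The type 3 median was thus lower in members of each library, while the type 1 median was higher in 2 libraries, level in 1 and lower in 1.

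**Figure D4:**
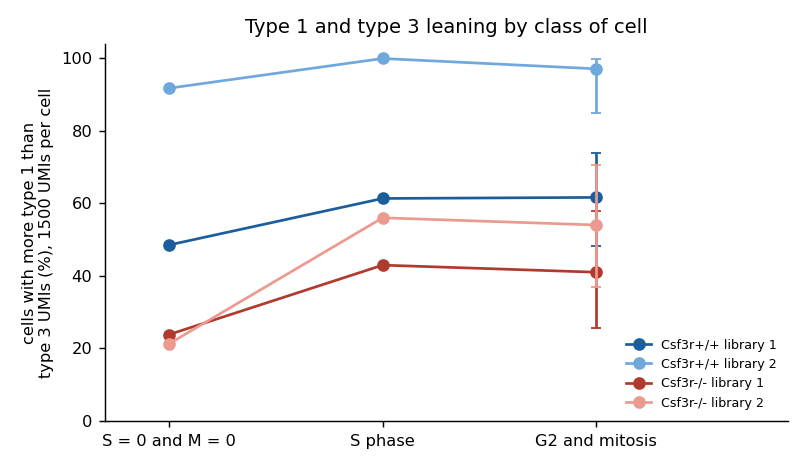
Share of cells, in percent, with more UMIs of type 1 than of type 3 genes after thinning to 1500 UMIs, for M = 0 and S = 0 cells, S-phase cells and G2 and mitosis cells, with 1 line per library and exact 95% intervals on the G2 and mitosis cells. Each of the 4 lines is higher at G2 and mitosis than at M = 0 and S = 0, by 5.34 to 32.8 points.

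Some genes of quiescence and of cytokine-driven growth were lower in the members. Il7r, the receptor that sustains resting T cells, stood at 122, 146, 339 and 217 CPM against 322, 361, 501 and 594 CPM and fell by 1.28 ± 0.14 on the log2 scale (edgeR adjusted p = 4.80e-11). Ccr7, Satb1 and Klf6 fell with it, so that 4 of 18 genes of the quiescence list fell. Of 11 cytokine receptors for growth 4 fell (Il7r, Il2ra, Il2rg and Slc3a2) and 0 rose.

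In the activation and checkpoint list, 4 of 20 genes rose and 5 fell over the 4 libraries. Junb, an AP-1 subunit, stood at 400, 1336, 1439 and 2131 CPM against 1557, 3111, 2978 and 4641 CPM and fell by 1.45 ± 0.10 (edgeR adjusted p = 1.60e-19). Egr1, Fos, Fosb and Jun also passed the test with a fall in the mean over libraries, but not in each of them. Fos (641 and 1143 against 612 and 742 CPM) and Jun (485 and 760 against 419 and 529 CPM) were higher in members of both Csf3r-/- libraries. Ctla4 rose by 1.15 ± 0.23, Tnfrsf4 (OX40) by 1.33 ± 0.24, Havcr2 (TIM-3) by 1.56 ± 0.56 and Tox, a factor of exhausted T cells, by 0.59 ± 0.21.

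Of 15 interferon response genes 6 were lower than in M = 0 and S = 0 cells (median -0.28) and 0 were higher, with Ifit1 at 214, 29.1, 396 and 28.6 CPM against 294, 154, 435 and 79.4 CPM. The order was different against S-phase cells, where 6 of 12 were higher, among them Ifit1 and Isg15. DESeq2 called 0 of these 12, without Csf3r+/+ library 1 edgeR called 3, and within 3000 to 8000 UMIs it called 1. Glycolysis genes gave 3 higher (Gapdh, Tpi1 and Ldha) and 1 lower (Aldoa) of 14, and 6 of 21 respiratory chain genes were higher, by at most 0.47 on the log2 scale.

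The remaining genes with the largest falls against M = 0 and S = 0 cells were of several kinds. The cochaperone Dnajb1, a heat shock gene, stood at 134, 312, 88.6 and 194 CPM against 581, 985, 174 and 258 CPM (log2 fold change -1.57 ± 0.16). The syndecan Sdc1, which marks a type 3 subset of innate-like T cells, fell by 2.28 ± 0.34, Ramp3 by 1.66 ± 0.21, and Tcp11l2, Klf4, Rarg, Pxdc1 and St6galnac3 fell as well. H2-Eb1 and H2-Aa, which encode MHC class II chains of antigen-presenting cells, fell by 3.18 ± 0.40 and 2.11.

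The members kept the transcripts of T cells. Summed over 10 T cell identity genes they held 5976, 4765, 5985 and 5821 CPM, against 7247, 5197, 7228 and 7047 CPM in comparison cells, with Cd3g the most abundant gene and 0 of the 10 genes at 0 in any library. In this list Lat, Cd3g, Thy1 and Cd3d fell and Cd5, which dampens T cell receptor signals, rose by 0.87 ± 0.19. Cd4 had 0, 2, 0 and 3 UMIs in members. The regulatory T cell factor Foxp3 rose by 1.88 ± 0.51 from at most 8.97 CPM to 9.75, 29.1, 20.9 and 11.4 CPM, which rests on 1, 6, 2 and 2 cells with 4, 7, 4 and 2 UMIs. Cd40lg, which encodes CD40 ligand, fell by 1.56 ± 0.25. Ikzf2, the most abundant gene of the list of CD4 and regulatory T cell markers, also passed the test as higher. With all genes counted it stood at 417, 734, 359 and 614 CPM against 295, 625, 286 and 310 CPM.

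Myeloid markers took a smaller share of the RNA in members in 3 of 4 libraries. Of 13 tested macrophage and dendritic cell markers 9 were lower than in comparison cells and 0 higher (median -2.23). Summed over the list, members held 75.2, 182, 348 and 245 CPM, comparison cells 70.3, 834, 633 and 2288 CPM and S-phase cells 691, 811, 754 and 4974 CPM. Cd74 was the most abundant of these markers in members of each library, at 31.5 to 177 CPM, and Adgre1 (F4/80), Csf1r, Fcgr1, Flt3 and Itgam had 0 UMIs in members of every library. Against S-phase cells 5 of 5 tested markers were lower (median -3.43), and H2-Eb1, H2-Ab1 and H2-Aa were among the 8 genes with the largest falls. Summed CD8 T cell markers (Cd8a and Cd8b1) stood at 4.85, 8.29, 46.8 and 108 CPM in members against 16.6, 8.18, 30.7 and 24.98 CPM in comparison cells. In the 4 libraries these were 2, 2, 9 and 19 UMIs in 2, 2, 6 and 4 members, and Csf3r-/- library 2 is also the library in which the type 1 sum was higher and the gap in type 1 leaning was 32.8 points. Their part in those values was not tested. The 2 γδ T cell markers measured here, of 7 listed, summed to 16.97, 4.15, 98.8 and 79.7 CPM against 43.9, 9.93, 176 and 162 CPM, and B cell markers to 14.5, 4.15, 93.6 and 5.69 CPM against 14.9, 15.3, 68.0 and 18.7 CPM. Neutrophil markers reached at most 11.4 CPM in members of any library. A UMI of any of 9 genes of macrophages, neutrophils, B cells and fibroblasts was found in 10.0%, 22.9%, 12.8% and 36.8% of members and in 3.93%, 14.1%, 8.63% and 34.2% of the shallower comparison cells. The part of other cells' RNA in the results above was not tested beyond the fit that left such cells out.

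Within the members, Csf3r-/- against Csf3r+/+ libraries asks whether loss of the receptor changed dividing UTCαβ. Csf3r itself had 0 UMIs in the members of all 4 libraries, which allows a share of up to 5.0%, 8.57%, 7.69% and 7.89% of cells with a UMI but sets no limit on cells that express the gene, and 1, 3, 1 and 1 UMIs in comparison cells, so its transcript does not check the labels. Of 3044 genes tested by edgeR, 1 was higher (0.0329%) and 2 were lower (0.0657%) in Csf3r-/- members, and 232 had an unadjusted p under 0.05 (7.62%). In the mitotic, replication and CDK inhibitor lists 0 genes passed the test. With 2 libraries a genotype, effects of animal, tumor and library cannot be told apart. Leaving out 1 library raised the counts of higher and lower genes. They were 34 and 50 when Csf3r+/+ library 1 was dropped, 59 and 54 when its companion library 2 was, 22 and 22 when Csf3r-/- library 1 was, and 13 and 35 when library 2 of that genotype was.

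Il17a (chromosome 1, 20730905 to 20734496 on GRCm38, plus strand, a protein-coding gene) was the higher gene. It had 0 UMIs in members of both Csf3r+/+ libraries and stood at 322 and 922 CPM in members of the Csf3r-/- libraries, found in 12 of 39 and 17 of 38 cells. The edgeR adjusted p was 0.0107. A floor of 3 UMIs over the Csf3r+/+ members is 4.59 CPM, and the pooled Csf3r-/- level of 609 CPM was at least 132 times that floor. The multiple of the floor was 48 without Csf3r+/+ library 1, 83 without Csf3r+/+ library 2, 200 without Csf3r-/- library 1 and 70 without Csf3r-/- library 2. Comparison cells were ordered by genotype as members were, at 11.3 and 8.81 CPM in Csf3r+/+ and 223 and 1358 CPM in Csf3r-/- libraries. The change from comparison cells to members was not among those that differed between genotypes. Both Csf3r+/+ comparison levels are above the floor, and 80 of the 182 UMIs in those cells of Csf3r+/+ library 2 came from 1 cell. The floor is therefore no limit on the Csf3r+/+ level, and its multiples are no limit on the difference between genotypes. Over the type 3 list the median was 1.27 for 15 tested genes with only Il17a called, and Icos, at 87.3 and 149 against 567 and 586 CPM, did not pass (2.29 ± 0.35, edgeR adjusted p = 0.0539).

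The lower genes were Hist1h2al and Rpl13a-ps1, both annotated as processed pseudogenes. Hist1h2al (chromosome 13, 51202727 to 51203065, minus strand) stood at 419 and 270 CPM against 15.6 and 22.8 CPM, and Rpl13a-ps1 (chromosome 19, 50030124 to 50030735, minus strand) at 652 and 829 against 114 and 114 CPM. Comparison cells differed alike, at 12.6 and 12.1 against 0.488 and 0.696 CPM for Hist1h2al and 944 and 1129 against 156 and 180 CPM for Rpl13a-ps1. The parent gene Rpl13a stood at 7492, 8207, 7379 and 7658 CPM. Such genes share sequence with their parents and their counts are uncertain. Whether these differences come from processing or from strain background was not tested. None of the 3 genes was called when M had to be at least 5, when cells with UMIs of other cell types were left out, or within 3000 to 8000 UMIs.

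Type 1 genes gave 0 calls among 21 tested between genotypes (median -0.61). The most abundant, Ccl5, stood at 2924 and 4976 CPM in Csf3r+/+ and 1695 and 1485 CPM in Csf3r-/- members (-1.34 ± 0.33, edgeR adjusted p = 0.171), and Gzmb at 1120 and 626 against 146 and 330 CPM (-1.87 ± 0.41, edgeR adjusted p = 0.111). The groups did not overlap for either gene, yet neither passed the test.

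**Figure D5:**
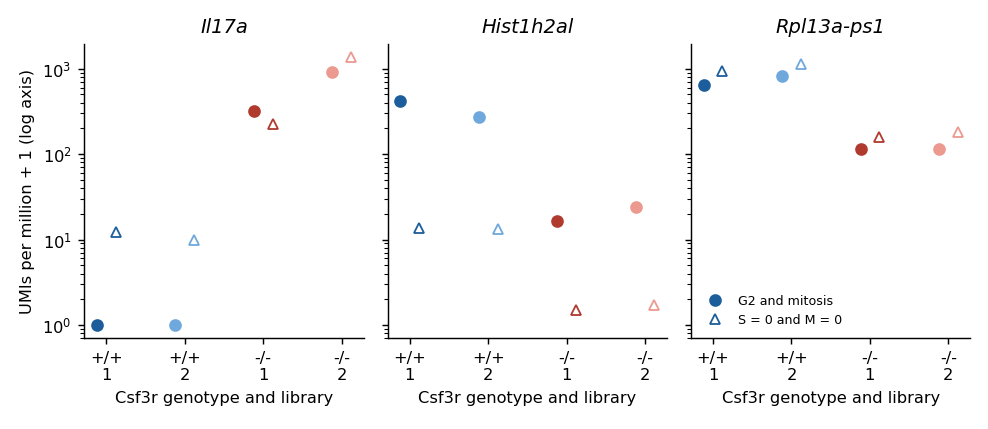
Levels of the 3 genes called between genotypes within G2 and mitosis cells, as CPM plus 1 on a log axis, by library, with filled circles for G2 and mitosis cells and open triangles for M = 0 and S = 0 cells. Il17a lies at 0 in Csf3r+/+ G2 and mitosis cells, and for all 3 genes the comparison cells are ordered by genotype as the G2 and mitosis cells are.

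Whether the step from M = 0 and S = 0 cells to members differed between genotypes was tested as an interaction over 10370 genes. The change was more positive in Csf3r-/- libraries for 40 genes (0.386%) and more negative for 13 by edgeR, 0.511% of the genes in either direction. Type 1 genes took 9 of the 40 (of 29 tested): Klra6, Klra9, Ifng, Klrb1c, Klra7, Klrd1, Cd160, Xcl1 and Ccl5. Summed CD8 T cell markers stood at 4.85 and 8.29 CPM in Csf3r+/+ members against 16.6 and 8.18 CPM in comparison cells. In Csf3r-/- libraries they stood at 46.8 and 108 against 30.7 and 24.98 CPM, and 0 of 2 were called. Their part in the type 1 calls was not tested. Ifng stood at 102 and 229 CPM in Csf3r+/+ members against 208 and 307 CPM in their comparison cells, and at 57.4 and 217 CPM in Csf3r-/- members against 46.9 and 76.5 CPM, a difference of 1.85 ± 0.33 (SE, edgeR adjusted p = 1.54e-05). Klrd1, the NK receptor CD94, stood at 395 and 782 against 521 and 691 CPM in Csf3r+/+, and at 276 and 486 against 196 and 181 CPM in Csf3r-/- libraries, a difference of 1.16 ± 0.22.

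Of 21 tested genes of the activation and checkpoint list, Fos, Jun, Cd28 and Cd69 were among the 40 and Pdcd1 among the 13, and Junb, Egr1 and Fosb were not called. Fos stood at 409 and 237 CPM in Csf3r+/+ members against 1275 and 908 CPM in comparison cells, and at 641 and 1143 against 612 and 742 CPM in Csf3r-/- libraries, a difference of 2.16 on the log2 scale. Id3, a repressor of E proteins, stood at 41.4 and 95.7 against 91.6 and 123 CPM in Csf3r+/+, and at 120 and 45.7 against 21.4 and 17.7 CPM in Csf3r-/- libraries. Atf3, Klra6 and Cdkn1a were the others with the largest positive differences. Atf3 rests on 0, 3, 4 and 20 UMIs in members of the 4 libraries, and Cdkn1a on 4, 7, 21 and 25 UMIs. For Klra6 the libraries of each genotype moved in opposite ways, at 14.6 and 133 against 89.1 and 110 CPM in Csf3r+/+ and 15.6 and 149 against 26.8 and 26.8 CPM in Csf3r-/- libraries, and Klra genes are near-identical copies whose counts are uncertain.

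In the opposite direction the checkpoint receptor Pdcd1 stood at 173 and 25 CPM in Csf3r+/+ members against 48.4 and 33.3 CPM in comparison cells, and at 57.4 and 160 against 76.7 and 294 CPM in Csf3r-/- libraries. In Csf3r+/+ the libraries moved in opposite ways for this gene. Prc1, Cdkn2c, Mki67 and 1500009L16Rik completed the named genes, and for Prc1 and Mki67 the comparison cells are near 0 by the choice of cells. DESeq2 called 10 of the genes with positive and 0 of those with negative differences, and leaving out 1 library gave 11 to 33 and 3 to 8 calls. The positive calls numbered 11 when Csf3r-/- library 2 was dropped and 25 when Csf3r+/+ library 2 was, and the negative calls were 3 without either Csf3r-/- library and 8 without either Csf3r+/+ library.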

How the data were processed

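The authors demultiplexed reads with bcl2fastq, aligned them to mm10 and counted UMIs with Cell Ranger, per the labels and the study's methods, and deposited UMI counts per gene and barcode (27998 genes) without normalization. Whether aggregation equalised depth between libraries is not given in the sources used here. Libraries were split by the numeric barcode suffix, and 0 columns were without a sample. The members and gene lists were chosen with earlier results of these data known. UMIs were summed per library and class, without the 12 genes of the rule except between genotypes, and fitted with edgeR 4.0.16 (R 4.3.3, TMM, quasi-likelihood test, library as a block within genotypes, Benjamini-Hochberg). Between genotypes and for the interaction, p-values measure the spread between 2 libraries a genotype. For classes of cells compared within libraries, they measure how the change varied over the 4 libraries. DESeq2 1.42.0, other filters, thresholds and depths and left-out libraries were alternatives. On counts simulated with a dispersion of 0.05, edgeR recovered 93.5% of genes changed by 2 on the log2 scale against M = 0 and S = 0 cells, 88.5% against S-phase cells, 79.5% between genotypes and 31.0% for the interaction. That dispersion was set and not estimated from these libraries, and the changed genes were drawn from the more abundant ones. The recovered shares therefore need not hold for the tests above. Genes were named as the 10 (M = 0 and S = 0 cells) or 8 (S-phase cells) with the largest change in each direction past the threshold, changed alike in 4 libraries and at 50 CPM or more in the higher class, the 5 largest between genotypes and for the interaction, and list members. Gene positions are from GENCODE on GRCm38. Results for a few genes are not reported here.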

Additional observations from a re-analysis of the deposited data

Results flagged for a closer look

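The step from M = 0 and S = 0 cells to G2 and mitosis cells differed between genotypes, by the interaction test in edgeR, for 40 genes with a more positive change in Csf3r-/- libraries and 13 with a more negative one. With a mean of at least 50 CPM in a genotype, the 5 largest positive differences on the log2 scale were those of Atf3 (3.11), Id3 (2.88), Klra6 (2.31), Cdkn1a (2.20) and Fos (2.16). The 5 largest negative ones were those of Pdcd1 (-1.99), Prc1 (-1.89), Cdkn2c (-1.84), Mki67 (-1.83) and 1500009L16Rik (-1.72). Of these 10 genes DESeq2 called only Fos. The difference of Atf3 rests on 0, 3, 4 and 20 UMIs in members of the 4 libraries.

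Barcodes without a UMI of Cd3e were left out of every comparison, and some of them met the rule on M and S. They numbered 13 in Csf3r+/+ library 1, 13 in Csf3r+/+ library 2, 13 in Csf3r-/- library 1 and 14 in Csf3r-/- library 2, with a median of 5614 UMIs over the libraries, and 21 of the 53 held a UMI of macrophage, neutrophil, B cell or fibroblast genes. Their identity was not tested.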

How the results depend on the processing

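No paired analysis was possible because the numeric barcode suffix is not tied to an animal, so that no Csf3r-/- library could be paired with a Csf3r+/+ library; classes of cells were compared within libraries. Against M = 0 and S = 0 cells, the 634 higher genes became 358 with genes of at least 50 CPM (an alternative chosen after seeing the data) and 292 with no library block, and 406 to 581 when 1 library was left out, the lowest without Csf3r+/+ library 1. The 722 lower genes became 261 with DESeq2, 464 with genes of at least 50 CPM and 39 with no library block, and 475 to 612 with 1 library left out, again lowest without Csf3r+/+ library 1. Against S-phase cells, the 321 higher genes became 112 with DESeq2, 202 without cells holding UMIs of other cell types and 191 within 3000 to 8000 UMIs, and the 321 lower genes became 140 with DESeq2 and 520 with no filter on low counts. Between genotypes, 1 higher and 2 lower genes became 4 and 12 with DESeq2, 21 and 55 with no filter, 2 and 6 with M of at least 2, and 0 and 0 with M of at least 5, without cells holding other cells' UMIs, or within 3000 to 8000 UMIs. With 1 library left out, where the lone library is assumed to vary like the others, they became 13 to 59 and 22 to 54. The interaction's 40 and 13 became 10 and 0 with DESeq2 and 11 to 33 and 3 to 8 with 1 library left out. The causes were not tested. The genotype difference in the share of members ranged from -1.46 to 0.110 points with 1 library left out, reversed to 0.110 without Csf3r+/+ library 1. The gap in type 1 leaning ranged from 11.9 to 21.0 points. Of the named genes' values under the alternatives 0 were reversed, and 237 of 248 stayed called against M = 0 and S = 0 cells, 170 of 170 against S-phase cells, 24 of 33 between genotypes and 30 of 60 for the interaction.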

Other observations

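A few gene groups that no list held as a whole were looked at after their values were seen, and are given as a description. The tubulin genes Tuba1b, Tuba1c, Tubb4b and Tubb5 below were already counted in the spindle list. Genes of cytosolic ribosomal proteins took a smaller part of the RNA in members. Of 76 tested, 56 were lower than in M = 0 and S = 0 cells and 0 higher by edgeR (median -0.36 on the log2 scale), and their sum was 201095, 262386, 204550 and 214143 CPM in members of the 4 libraries against 252793, 322046, 233814 and 237790 CPM. In this contrast DESeq2 called 35 lower, within 3000 to 8000 UMIs 69 were, and with no library block 2 were. Against S-phase cells 8 were lower, with 2 by DESeq2, 6 within 3000 to 8000 UMIs, 24 among genes of at least 50 CPM and 31 with no filter. In that contrast 17 were lower when Csf3r-/- library 1 was left out and 3 when Csf3r-/- library 2 was.

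Proteasome subunit genes went the other way, with 12 of 37 higher and 0 lower (median 0.25). Their sum was 11396, 8662, 10548 and 9119 CPM in members against 8830, 6315, 8539 and 7267 CPM. Within 3000 to 8000 UMIs 4 were higher, with DESeq2 8, and with no library block 0. When Csf3r+/+ library 1 was left out 4 were higher, and when Csf3r+/+ library 2 was, 9 were higher and 1 lower (Psmd4). Of 10 tubulin genes 6 were higher and 0 lower, of 33 heat shock and DnaJ genes 3 were higher and 7 lower, and of 13 mitochondrially encoded genes 5 were lower and 0 higher. With no library block 5 tubulin genes were higher, 1 heat shock gene was higher and 0 lower, and 0 mitochondrially encoded genes were lower. DESeq2 called 6 tubulin genes higher, 3 heat shock genes higher and 4 lower, and 4 mitochondrially encoded genes lower. Leaving out Csf3r+/+ library 1 gave 3 mitochondrially encoded genes lower.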
